A study of Mus musculus with 12 samples.

Results

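Of the 24025 genes named on the array, 10 Polycomb genes are described here: Ezh1, Ezh2, Eed, Suz12, Jarid2, Mtf2, Phf19, Cbx7, Rnf2 and Kdm2b. They were chosen by name, with every probe of each gene, and no measured value entered the choice of the probes. The list of genes itself was drawn up with earlier results of these data known. Of the 55681 probes of the array, 17 read these genes: 4 for Ezh1, 3 for Kdm2b, 2 each for Mtf2 and Cbx7, and 1 for each of the other genes. All 17 probes were well above background on every one of the 12 arrays, so no member was lost to a filter.

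The data are 12 Agilent arrays with a single dye, each hybridised with RNA of 1 sample. Mouse embryonic stem cells (mESC) gave 4 samples with the phenotype Tbx3-high and 4 with the phenotype Tbx3-low. Mouse induced pluripotent stem cells (iPSC), which are body cells returned to a pluripotent state, gave 2 samples labelled Tbx3-null and 2 labelled Tbx3 wild type. The protein Tbx3 is a T-box factor that takes part in the transcription network of pluripotent cells. Strain, passage, culture medium, the method that parted Tbx3-high from Tbx3-low cells, the part of Tbx3 that the null allele lacks and whether the arrays of a group stand for separate cultures or clones are not stated in the labels. All p-values therefore rest on the spread between these samples, which may be technical.

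Polycomb proteins are chromatin regulators that keep developmental genes silent in pluripotent cells. Polycomb repressive complex 2 (PRC2) holds a methyltransferase, Ezh2 or its relative Ezh1, with the core subunits Eed and Suz12, and places methyl groups on lysine 27 of histone H3. Its accessory proteins, among them Jarid2, Mtf2 and Phf19, help to bring it to CpG-rich DNA. Polycomb repressive complex 1 (PRC1) is built around the ubiquitin ligase Rnf2 (also called Ring1b), which marks histone H2A, and is guided either by a Cbx protein such as Cbx7, which reads the PRC2 mark, or by partners such as Kdm2b, which binds unmethylated CpG islands.

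The sequences shown first are the promoters of Suz12 and Phf19 and the 2 Cbx7 probes, which moved in opposite ways in the iPSC. Suz12 and Phf19 fell in Tbx3-high mESC and have an 8-letter E2F site before their start. Ezh1 also fell there but had 0 such sites, and Ezh2 had 1 and did not pass the threshold. The site was added after the values were seen, and a link between it and the changes was not tested. The promoter sequences come from RefSeq (GRCm38.p6), 5′ to 3′ on the gene's strand, and give the 250 bases before the start. The E2F site searched was TTTCCCGC or TTTGGCGC on either strand, and its match is in capitals. The Suz12 sequence lies at chr11:79992856-79993105 (plus strand) and the Phf19 sequence at chr2:34913977-34914226 (minus strand).
Suz12 promoter: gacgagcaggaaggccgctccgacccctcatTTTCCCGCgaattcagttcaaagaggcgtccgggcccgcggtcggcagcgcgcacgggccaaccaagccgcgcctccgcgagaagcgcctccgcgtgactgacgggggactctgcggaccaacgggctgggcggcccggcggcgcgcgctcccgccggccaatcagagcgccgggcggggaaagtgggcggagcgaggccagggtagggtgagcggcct
Phf19 promoter: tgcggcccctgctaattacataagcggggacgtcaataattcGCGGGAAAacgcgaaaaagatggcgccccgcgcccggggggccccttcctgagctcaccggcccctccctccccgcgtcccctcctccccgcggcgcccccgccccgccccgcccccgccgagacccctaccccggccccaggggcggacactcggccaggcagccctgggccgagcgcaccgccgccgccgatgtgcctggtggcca

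RefSeq listed 15 start sites for the 10 genes, and the windows searched ran from 250 bases before to 50 bases after each start. The E2F site was found in 3 of the 15 windows, those of Ezh2, Suz12 and Phf19; in Ezh2 it lay after the start. Over all 32851 promoter windows of RefSeq, 1.56% held it, and over the 8701 windows with at least 20 CpG dinucleotides 3.74% did. The Polycomb windows held 2 to 49 CpG, against a median of 7 over all promoters, and 12 of the 15 held at least 20. The T-box motif AGGTGTGA, searched on both strands, was found in 0 of the 15 windows, in 1.28% of all promoters and in 0.506% of those with at least 20 CpG. A match or its absence describes these letters in these windows only.

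The 2 Cbx7 probes are 60 bases long and lie 2365 bases apart on the minus strand of chromosome 15 (mm9). Probe 1 spans 79746240 to 79746299 and probe 2 spans 79748605 to 79748664. The GC content was 20% over the whole of probe 1 and 45% over the whole of probe 2. The first 30 bases of each are given 5′ to 3′.
Cbx7 probe 1: ttagatgatttatctgatagatgaggcaaa
Cbx7 probe 2: tatttttattttttaaaaaagtagaagcac

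Levels are log2 of the processed signal minus the log2 of the array's 75th percentile, and a change is a group mean minus the other group's mean, with its standard error (SE) from limma. Each adjusted p comes from limma after Benjamini-Hochberg adjustment over all probes tested, and a probe passed when this was under 0.05. Where a gene had several probes, the one with the highest mean level stands for the gene and the others are numbered from 2. The mESC arrays lay on 1 slide and the iPSC arrays on another, so levels of the 2 cell types are given side by side and were not tested against each other. On the mESC slide the Tbx3-low arrays filled columns 1 and 2 and the Tbx3-high arrays columns 3 and 4 in both rows, so column and group cannot be told apart there. The same holds for the iPSC slide, with the wild type in columns 1 and 2.

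Array brightness, as the 75th percentile of the signals, was 314 to 458 for mESC and 699.8 to 1007 for iPSC, and 0 spots were saturated. Between 55.9% and 64.8% of the spots of an mESC array stood well above background, as did 68.0% to 68.6% for wild-type iPSC and 62.4% to 63.0% for iPSC labelled Tbx3-null. Whether this gap bears on the iPSC results was not tested. The level of Tbx3, read by 1 probe, was 7.03 to 7.12 on the Tbx3-high and 5.72 to 5.76 on the Tbx3-low arrays, a 2.51-fold difference (change 1.33 ± 0.08 (SE, n = 4 per group), adjusted p = 7.25e-07). It was 5.48 and 5.51 on the arrays labelled Tbx3-null and 4.996 and 5.35 on the wild-type arrays, a change of 0.32 that was called higher under the null label (adjusted p = 0.0482). This probe thus went against that label, unless it reads a part of Tbx3 outside the deletion, in which case it checks nothing. The groups are therefore named by their labels in every iPSC comparison. Markers of pluripotent cells were well above background on all 12 arrays for all 8 genes of that list, among them Pou5f1, Sox2 and Nanog. In Tbx3-high mESC 3 of them rose (Esrrb by 0.50, Zfp42 by 0.46 and Tdgf1 by 0.25) and Utf1 fell by 0.29, and in the iPSC 0 passed by limma. Over all genes 17.2% were higher and 13.9% lower in Tbx3-high mESC. The brightest Nanog probe did not pass there, but its 2 other probes were called higher, at 0.41 each. The other Esrrb probe, at 0.61, was not called.

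**Figure D1:**
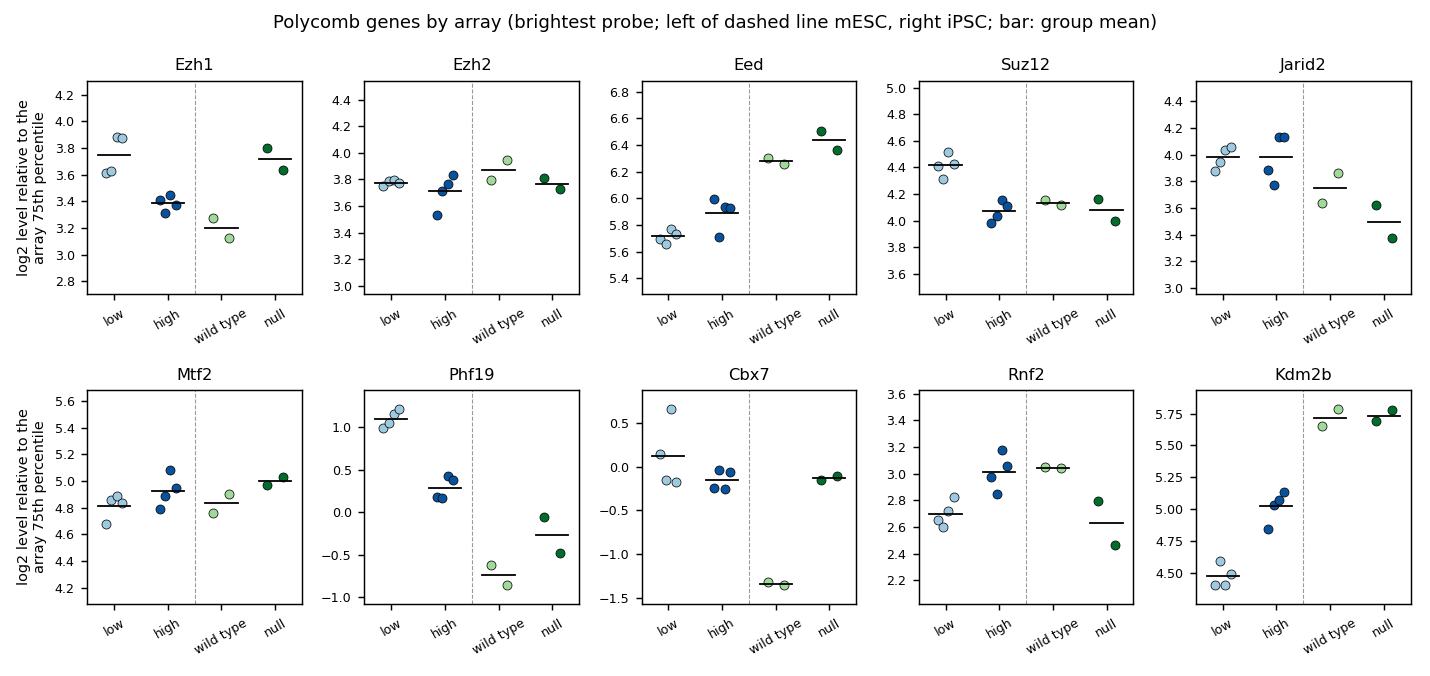
Level of each of the 10 Polycomb genes (brightest probe) on each array: the vertical axis is the log2 level relative to the array's 75th percentile, points are arrays and bars are group means, 4 for each mESC group and 2 for each iPSC group. In Tbx3-high mESC Kdm2b and Rnf2 were called higher and Phf19, Suz12 and Ezh1 lower, beside 17.2% and 13.9% over all genes. Under the null label in iPSC Ezh1, Phf19 and Cbx7 probe 1 were called higher and Rnf2 lower, beside 19.4% and 15.3%.

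The first comparison asked which Polycomb genes differed between mESC with high and with low Tbx3. Rnf2 and Kdm2b rose in Tbx3-high cells, Ezh1, Suz12 and Phf19 fell, and Ezh2, Eed, Jarid2, Mtf2 and Cbx7 did not pass. Of the 17 probes 8 passed, against 25.9% of all 30691 probes tested. Of the 15875 genes tested by 1 probe each, 17.2% were higher and 13.9% were lower, which stands beside 2 and 3 of the 10 Polycomb genes. The median change of the 10 genes was -0.03, and that of all genes was 0.04. Each slide row alone called fewer of these genes, 2 in row 1 and 3 in row 2, with 2 arrays per group.

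In the iPSC the second comparison asked what differed between cells labelled Tbx3-null and wild-type cells. By the brightest probe of each gene, Ezh1, Phf19 and Cbx7 rose under the null label, Rnf2 fell, and Ezh2, Eed, Suz12, Jarid2, Mtf2 and Kdm2b did not pass. The second Cbx7 probe fell, so no direction is given for Cbx7 as a gene. Again 8 of the 17 probes passed, against 28.3% of all 36712 probes tested. Among 17745 genes 19.4% were higher and 15.3% lower, beside 3 and 1 of the 10 Polycomb genes. Their median change was 0.09, and that of all genes was 0.07. With 2 arrays per group these counts were less stable: 1 Polycomb gene passed without wild-type replicate 2, 2 passed without wild-type replicate 1 or without null replicate 1, and 1 passed in a fit of the 4 iPSC arrays alone.

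The third comparison set (high minus low) in mESC against (wild type minus null) in iPSC, so that a gene that moved with the Tbx3 label by the same amount in both cell types has a difference of 0. By the brightest probes Cbx7 and Kdm2b had a positive difference and Suz12 a negative one, and the other 7 genes did not pass. The second Cbx7 probe had a negative one. By probe, 7 of 17 passed, against 23% of the 37071 probes tested. Of 17910 genes, 16.3% had a higher and 12.5% a lower value in this contrast. The median was 0.03 for the 10 Polycomb genes and 0.10 for all genes. Blocking on the replicate number left 1 of the 10 genes in place of 3, and 0 passed without null replicate 2 or without wild-type replicate 1.

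**Figure D2:**
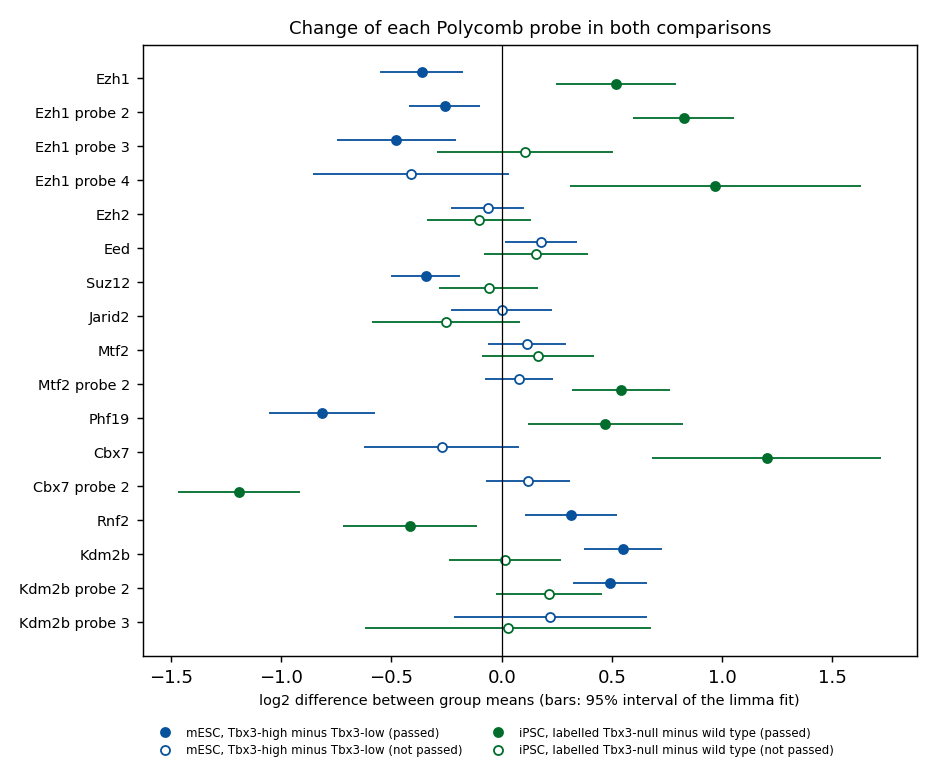
Change of each of the 17 Polycomb probes in mESC (blue, Tbx3-high minus Tbx3-low) and in iPSC (green, labelled Tbx3-null minus wild type): the horizontal axis is the log2 difference between group means, bars are 95% intervals of the limma fit, and filled points passed the threshold. Phf19 has the lowest mESC value at -0.82, and the 2 Cbx7 probes lie on opposite sides of 0 in the iPSC at 1.20 and -1.19.

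Ezh1 and Ezh2 are the alternative catalytic subunits of PRC2, and Ezh2 is the main one in dividing cells. The brightest Ezh1 probe lies on chromosome 11 from 101052430 to 101052489 (mm9, minus strand). Its level was 3.61, 3.63, 3.88 and 3.87 on the Tbx3-low arrays and 3.41, 3.31, 3.45 and 3.37 on the Tbx3-high arrays. Each Tbx3-high array lay below each Tbx3-low array, and Ezh1 fell by 0.36 ± 0.09 (SE, n = 4 per group, adjusted p = 0.00926). Within slide row 1 the change was -0.26, and within row 2 it was -0.47. The call did not hold in row 1 alone (adjusted p = 0.153).

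In the iPSC the Ezh1 level was 3.80 and 3.63 on the arrays labelled Tbx3-null and 3.28 and 3.12 on the wild-type arrays. The groups did not overlap, and Ezh1 rose under the null label by 0.52 ± 0.12 (SE, n = 2 per group, adjusted p = 0.010). It was no longer called without null replicate 1 (0.43, adjusted p = 0.0761), without wild-type replicate 2 (0.44, adjusted p = 0.0701) and on the iPSC arrays alone (adjusted p = 0.0592), and the change was 0.29 with the values of the deposited series table. The mESC and the iPSC change did not differ in the third comparison by the threshold used (0.15, 95% interval -0.18 to 0.49, adjusted p = 0.526). Higher Tbx3 in mESC and the wild-type label in iPSC thus both went with a lower Ezh1 level.

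The other Ezh1 probes lie within 6292 bases of the first. Probe 2, only 250 bases away, was 1.65 to 1.73 on the Tbx3-low and 1.33 to 1.56 on the Tbx3-high arrays, a change of -0.26 (adjusted p = 0.0226). This call is near its limit: it ended without Tbx3-low replicate 3 (-0.25, adjusted p = 0.0553) or 4 (-0.25, 0.0567), without Tbx3-high replicate 1 (-0.22, 0.0636) or 2 (-0.24, 0.0581), under normexp background (0.0565), without the dim filter (0.0762) and in slide row 1 or 2 alone (0.0985 and 0.210). On the arrays labelled Tbx3-null probe 2 stood at 1.60 and 1.69, and on the wild-type arrays at 0.72 and 0.91. It rose there by 0.83 ± 0.10 (SE, n = 2 per group, adjusted p = 0.000219), with no overlap. Its difference in the third comparison passed (0.57, adjusted p = 0.00973), unlike that of the brightest probe, and was at 0.47 without wild-type replicate 1 (adjusted p = 0.0511) and at 0.53 with slide row 1 alone (0.0614).

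Probes 3 and 4 of Ezh1 were dimmer. Probe 3 fell in Tbx3-high mESC by 0.48 (adjusted p = 0.0153), with -0.22 in slide row 1 and -0.74 in row 2, and by 0.19 with no call under normexp background (adjusted p = 0.135). Its iPSC change was 0.11 with an adjusted p of 0.726. Probe 4 was at -0.41 in mESC (adjusted p = 0.168) and rose in the iPSC by 0.97 ± 0.30 (SE, adjusted p = 0.0336), where the 2 arrays labelled Tbx3-null stood apart at -3.91 and -3.00. Without null replicate 2 that change was 0.52 (adjusted p = 0.239), without wild-type replicate 1 its adjusted p was 0.148, without wild-type replicate 2 it was 0.0900, and blocking on the replicate number made it 0.0653. It was 0.0597 without the dim filter and 0.0871 on the iPSC arrays alone. All 4 probes thus had a negative change in mESC and a positive one in iPSC, 3 of 4 passing in each, though probe 3 was at -0.01 in iPSC without null replicate 2.

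Ezh2, read on chromosome 6 from 47480307 to 47480366 (mm9, minus strand), did not pass in either cell type. Its level was 3.75, 3.79, 3.79 and 3.77 on the Tbx3-low arrays and 3.53, 3.71, 3.77 and 3.83 on the Tbx3-high arrays. The groups overlapped, and Tbx3-high replicate 1 was the lowest array. The mESC change was -0.06 with a 95% interval from -0.23 to 0.10 (adjusted p = 0.592), and it was 0.02 in slide row 2 alone. In the iPSC the level was 3.81 and 3.72 under the null label and 3.79 and 3.94 in the wild type. The iPSC change was -0.10 with a 95% interval from -0.34 to 0.13 (adjusted p = 0.545).

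Eed and Suz12 are the core partners without which the methyltransferase of PRC2 is inactive. Suz12, read on chromosome 11 from 79847251 to 79847310 (mm9, plus strand), was 4.41, 4.31, 4.52 and 4.43 on the Tbx3-low arrays. On the Tbx3-high arrays it was 3.98, 4.04, 4.16 and 4.11. The groups did not overlap, and Suz12 fell by 0.35 ± 0.07 (SE, n = 4 per group, adjusted p = 0.00450), a 1.27-fold difference. The change was -0.35 within slide row 1 and -0.34 within row 2, although neither row passed by itself (adjusted p = 0.0584 and 0.0658).

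In the iPSC, Suz12 was 4.16 and 4.0 under the null label and 4.16 and 4.12 in the wild type, with overlapping groups. The change was -0.06 with a 95% interval from -0.28 to 0.17 (adjusted p = 0.734), and it was 0.02 without null replicate 2. The third comparison gave Suz12 a difference of -0.40 ± 0.12 (SE, adjusted p = 0.0404). This call rested on each of 9 arrays: leaving 1 of them out gave adjusted p-values from 0.0585 to 0.149, and only the fits without Tbx3-low replicate 2, Tbx3-high replicate 3 or null replicate 1 kept it. It also ended under the replicate block (adjusted p = 0.0556), without the dim filter (0.0933) and with slide row 1 or 2 alone (0.109 and 0.110).

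Eed, read on chromosome 7 from 97103264 to 97103323 (mm9, minus strand), was 5.70, 5.66, 5.77 and 5.74 on the Tbx3-low arrays and 6.0, 5.71, 5.94 and 5.93 on the Tbx3-high arrays. Of the Tbx3-high arrays 3 exceeded the whole Tbx3-low group, and replicate 2 fell within it. The change of 0.18 ± 0.07 (SE, adjusted p = 0.109) did not pass, but it was 0.24 with an adjusted p of 0.0320 without Tbx3-high replicate 2. In the iPSC Eed was 6.51 and 6.36 under the null label and 6.30 and 6.26 in the wild type. These groups did not overlap, yet the change of 0.16 did not pass (adjusted p = 0.326), and it was -0.05 under quantile normalization and -0.12 with the series table values. The direction of the Eed change in iPSC thus depended on the scaling.

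Jarid2, Mtf2 and Phf19 are accessory proteins of PRC2. Jarid2, a Jumonji-family protein without demethylase activity that binds DNA and stimulates PRC2, belongs to a form of the complex apart from that of the Polycomb-like proteins Mtf2 and Phf19, whose extended-homology regions bind unmethylated CpG.

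Jarid2, read on chromosome 13 from 45016247 to 45016306 (mm9, plus strand), was 3.88, 3.95, 4.04 and 4.06 on the Tbx3-low arrays and 3.89, 3.77, 4.13 and 4.13 on the Tbx3-high arrays. The groups overlapped and both had a mean of 3.98. The mESC change was -8.36e-05 with a 95% interval from -0.23 to 0.23 (adjusted p = 0.9997), and within the slide rows it was -0.08 and 0.08. Jarid2 stood at 3.62 and 3.37 under the null label and at 3.64 and 3.86 in wild-type iPSC. The null-labelled arrays were lower, though the closest arrays of the groups were almost level. The change of -0.25 ± 0.15 (SE, adjusted p = 0.256) did not pass, whereas it was -0.38 under quantile normalization (adjusted p = 0.0408) and -0.42 with the series table values (adjusted p = 0.0171), where it would be called lower.

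Phf19, read on chromosome 2 from 34749588 to 34749646 (mm9, minus strand), had the widest mESC change of the 10 genes. Its level was 0.99, 1.05, 1.15 and 1.22 on the Tbx3-low arrays and 0.18, 0.17, 0.42 and 0.39 on the Tbx3-high arrays. The gap between the groups exceeded the range within each, and Phf19 fell by 0.82 ± 0.11 (SE, n = 4 per group, adjusted p = 0.000275), a 1.76-fold difference. Within slide row 1 the change was -0.85 and within row 2 it was -0.78. Over the 22 alternatives run for this value it lay between -0.87 and -0.72 and passed in each, with adjusted p-values from 0.000101 to 0.0203.

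In the iPSC, Phf19 was -0.06 and -0.48 under the null label and -0.62 and -0.86 in the wild type. Both null-labelled arrays lay above both wild-type arrays, and Phf19 rose by 0.47 ± 0.16 (SE, n = 2 per group, adjusted p = 0.0497). The call sat at the threshold: it ended without null replicate 1 (0.26, adjusted p = 0.332), without wild-type replicate 1 (0.59, 0.0670), without wild-type replicate 2 (0.35, 0.249), without the dim filter (0.0936) and on the iPSC arrays alone (0.151). As for Ezh1, the mESC fall and the iPSC rise both put the lower level with more Tbx3 or with the wild-type label, and their difference of -0.34 did not pass (95% interval -0.78 to 0.09, adjusted p = 0.246).

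Mtf2, read on chromosome 5 from 108537924 to 108537983 (mm9, plus strand), did not pass on its brightest probe. It was 4.68 to 4.89 on the Tbx3-low and 4.79 to 5.08 on the Tbx3-high arrays, a change of 0.11 with a 95% interval from -0.06 to 0.29 (adjusted p = 0.337). In the iPSC it was 4.97 and 5.03 under the null label and 4.76 and 4.91 in the wild type, a change of 0.16 (adjusted p = 0.338) that vanished under quantile normalization. The dimmer Mtf2 probe 2, 1879 bases away and with a GC content of 23.3%, rose in the iPSC from -2.44 and -2.61 in the wild type to -1.97 and -2.0 under the null label. That rise of 0.54 ± 0.10 (SE, n = 2 per group, adjusted p = 0.00256) passed in all 14 alternatives run for it, and its mESC change of 0.08 did not pass (adjusted p = 0.471). The 2 Mtf2 probes therefore gave different calls in the iPSC with the same sign, and their mean would be called higher (0.35, adjusted p = 0.00469).

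Cbx7, the main chromobox reader of PRC1 in pluripotent cells, was 0.14, -0.15, 0.66 and -0.18 on the Tbx3-low arrays and -0.25, -0.04, -0.26 and -0.06 on the Tbx3-high arrays by probe 1. Tbx3-low replicate 3 stood above the other arrays and the groups overlapped, and the change of -0.27 ± 0.16 (SE, adjusted p = 0.249) did not pass. In the iPSC probe 1 gave -0.16 and -0.11 under the null label and -1.32 and -1.36 in the wild type. By this probe Cbx7 rose 2.30-fold, a change of 1.20 ± 0.23 (SE, n = 2 per group, adjusted p = 0.00340). By probe 2 it fell 2.29-fold. The SE of probe 1 comes from 1 spread shared by all 4 groups. The standard deviation of its levels was 0.39 (Tbx3-low), 0.12 (Tbx3-high), 0.03 (null label) and 0.02 (wild type).

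Probe 2 of Cbx7 gave -2.72 and -2.68 under the null label and -1.49 and -1.53 in the wild type. The groups lay as far apart as for probe 1, with the order turned: the change was -1.19 ± 0.12 (SE, n = 2 per group, adjusted p = 6.54e-05). In mESC probe 2 ran from -1.96 to -1.78 on the Tbx3-low and from -1.96 to -1.56 on the Tbx3-high arrays, and its change of 0.12 did not pass (adjusted p = 0.349). The mean of both probes had an iPSC change of 0.0057 (adjusted p = 0.980), so no direction can be given for Cbx7 as a gene. In the third comparison probe 1 had a difference of 0.93 (adjusted p = 0.0403), which ended without any 1 array but Tbx3-low replicate 3 (adjusted p = 0.0525 to 0.107) under the replicate block (0.0949), without the dim filter (0.0732) and with slide row 2 alone (0.191), and probe 2 had one of -1.07 (adjusted p = 0.000815).

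**Figure D3:**
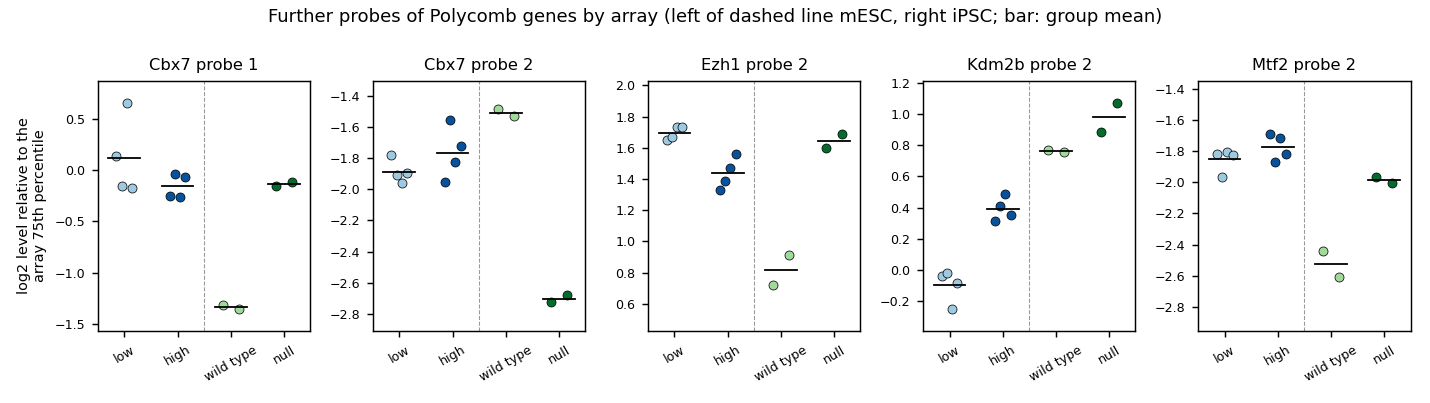
Levels by array of both Cbx7 probes and of the second probes of Ezh1, Kdm2b and Mtf2: the vertical axis is the log2 level relative to the array's 75th percentile, points are arrays and bars are group means (4 for each mESC group, 2 for each iPSC group). Under the null label Cbx7 probe 1 sits at -0.13 against -1.34 in the wild type, and probe 2 at -2.70 against -1.51.

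Rnf2, the catalytic ubiquitin ligase of PRC1, is read on chromosome 1 from 153316987 to 153317046 (mm9, minus strand). On the Tbx3-low arrays it was 2.65, 2.60, 2.72 and 2.83, and on the Tbx3-high arrays 2.97, 2.85, 3.18 and 3.06. The groups did not overlap, though their nearest arrays were 2.83 and 2.85, and Rnf2 rose by 0.32 ± 0.10 (SE, n = 4 per group, adjusted p = 0.0318). The change was 0.28 in slide row 1 and 0.35 in row 2, with no call in either alone (adjusted p = 0.179 and 0.126). It no longer passed in 6 of the 8 fits that left out 1 mESC array, those without Tbx3-low replicate 1, 2 or 3 or Tbx3-high replicate 1, 3 or 4 (0.26 to 0.33, adjusted p = 0.0537 to 0.0832), nor without the dim filter (0.0934).

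In the iPSC, Rnf2 was 2.79 and 2.47 under the null label and 3.05 and 3.04 in the wild type. Both null-labelled arrays were lower, and Rnf2 fell by 0.42 ± 0.14 (SE, n = 2 per group, adjusted p = 0.0460). It was no longer called without null replicate 2 (-0.25, adjusted p = 0.283), wild-type replicate 1 (-0.41, 0.152) or wild-type replicate 2 (-0.42, 0.135), under normexp background (0.0518), without the dim filter (0.0911) and on the iPSC arrays alone (0.129). The third comparison gave -0.10 with a 95% interval from -0.48 to 0.27 (adjusted p = 0.730). Rnf2 was thus higher both in Tbx3-high mESC and in wild-type iPSC.

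Kdm2b, a histone demethylase with a CXXC zinc finger that brings a variant PRC1 to CpG islands, is read by its brightest probe on chromosome 5 from 123320688 to 123320747 (mm9, minus strand). It was 4.40, 4.59, 4.41 and 4.49 on the Tbx3-low arrays and 4.85, 5.03, 5.07 and 5.14 on the Tbx3-high arrays. Every Tbx3-high array lay above every Tbx3-low array, and Kdm2b rose by 0.55 ± 0.08 (SE, n = 4 per group, adjusted p = 0.000485), a 1.46-fold difference. The change was 0.44 in slide row 1 and 0.66 in row 2, and it passed in all 22 alternatives run for it. Probe 2, 1026 bases away, rose by 0.49 ± 0.08 (SE, adjusted p = 0.000743) and also passed in all 20 run for it.

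Kdm2b probe 3 lies 137 kb from the brightest probe on mm9, and whether it lies near a start site of this gene was not tested. It was dim, with levels from -3.75 to -2.92 on the Tbx3-low and from -3.49 to -2.75 on the Tbx3-high arrays, and its change of 0.22 did not pass (95% interval -0.22 to 0.66, adjusted p = 0.468). Its interval holds the changes of the other 2 probes.

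In the iPSC, Kdm2b was 5.70 and 5.78 under the null label and 5.65 and 5.79 in the wild type. The groups overlapped and the change was 0.02 with a 95% interval from -0.24 to 0.27 (adjusted p = 0.941), while quantile normalization (-0.20) and the series table values (-0.23) gave a negative sign without a call. Probe 2 was 0.89 and 1.07 under the null label and 0.77 and 0.76 in the wild type, a change of 0.22 that did not pass (adjusted p = 0.177). The third comparison gave Kdm2b a difference of 0.57 ± 0.14 (SE, adjusted p = 0.0163), and probe 2 one of 0.71 (adjusted p = 0.00412). The brightest probe was no longer called without null replicate 2 (0.53, adjusted p = 0.0585), without wild-type replicate 1 (0.50, 0.0755), under quantile normalization (0.35, 0.120), with the series table values (0.30, 0.140) and with slide row 1 alone for mESC (0.46, 0.125). For probe 2 it passed in all 23 alternatives.

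The other genes of both complexes were taken from lists of general knowledge. Of 8 other PRC2 genes, 2 rose and 4 fell in Tbx3-high mESC and 2 did not pass, beside 17.2% higher and 13.9% lower over all genes. Their median change was -0.13, and that of all genes was 0.04. Ezhip, an inhibitor of the PRC2 methyltransferase, fell by 0.84 ± 0.10 (SE, adjusted p = 0.000134), the widest change of this list. The histone-binding subunit Rbbp7 fell by 0.44, the cofactor gene Lcorl by 0.46 and the accessory gene Aebp2 by 0.20, while Epop, an accessory protein of embryonic stem cells, rose by 0.41 and the Polycomb-like gene Phf1 by 0.29. Among other probes of these genes, 1 of 3 for Lcorl passed in the opposite direction, and that of Aebp2 had a change of 0.0013. Phf1 lost its call under normexp background (0.17) and with the series table values (0.15), and Aebp2 under normexp background.

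Under the null label in iPSC, 2 of these 8 genes were called higher and 2 lower (19.4% and 15.3% over all genes), with a median of -0.0047 beside 0.07 for all genes. Ezhip fell by 1.37 ± 0.15 (SE, n = 2 per group, adjusted p = 8.18e-05) and Aebp2 by 0.67, while Epop rose by 0.58 and Lcorl by 0.42. Ezhip, Aebp2 and Epop thus moved in the same sense in Tbx3-high mESC and under the null label, by these probes, and each passed the third comparison, at -2.21, -0.87 and 0.99. The other Aebp2 probe was at -0.07 in the iPSC and at -0.07 in the third comparison, with no call in either. That contrast had 2 positive and 2 negative calls in this list, beside 16.3% and 12.5% over all genes. The other positive call was that of Rbbp4 at 0.48, whose other probe was at -0.10. Rbbp4 lost its call under quantile normalization (0.21) and with the series table values (0.16).

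Among 25 other PRC1 genes 6 were higher and 7 lower in Tbx3-high mESC, while 12 missed the threshold, beside 17.2% higher and 13.9% lower over all genes. The median was 0.0043, and that of all genes was 0.04. Ring1, the relative of Rnf2 with the same ligase activity, rose by 0.55 (adjusted p = 0.00280). The Polyhomeotic gene Phc3 was called higher by 0.63 at the threshold (adjusted p = 0.0499), with overlapping groups. Among partners of Kdm2b in the variant PRC1, Bcor fell by 0.65 ± 0.10 (SE, adjusted p = 0.000537) and its relative Bcorl1 rose by 0.94 ± 0.08 (SE, adjusted p = 1.69e-05), although a second Bcorl1 probe was at -0.03 with no call. Pcgf1, the partner that sets the same variant complex apart, was at 0.37 and did not pass (adjusted p = 0.0521). Scml2, of the sex-comb-on-midleg family, fell by 0.56.

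Several PRC1 genes had wide changes in the iPSC. Under the null label 9 of the 25 PRC1 genes were called higher, 6 lower and 10 neither (19.4% and 15.3% over all genes were higher and lower), with a median of 0.14 beside 0.07 for all genes. Scml2 fell by 2.19 ± 0.12 (SE, n = 2 per group, adjusted p = 9.21e-07) and the chromobox gene Cbx8 fell by 1.75 ± 0.16 (SE, adjusted p = 3.01e-05). In the other direction Scmh1, also of the sex-comb-on-midleg family, rose by 1.24, the chromobox gene Cbx6 by 0.96 and L3mbtl2, a methyl-lysine reader of a further variant PRC1, by 0.63. These chromobox readers therefore split in the iPSC, with Cbx8 lower, Cbx6 higher, Cbx2 at 0.21 without a call (adjusted p = 0.200) and Cbx7 in both directions by probe. Cbx8 rose in Tbx3-high mESC (0.50) and was lower under the null label, and its third-comparison value of -1.25 passed. Among the 25 genes that comparison had 6 positive and 5 negative calls, beside 16.3% and 12.5% over all genes. These calls included Scml2 (-2.75), Cbx8, Bcor (-1.10), Ring1 (1.08) and Scmh1 (0.99).

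**Figure D4:**
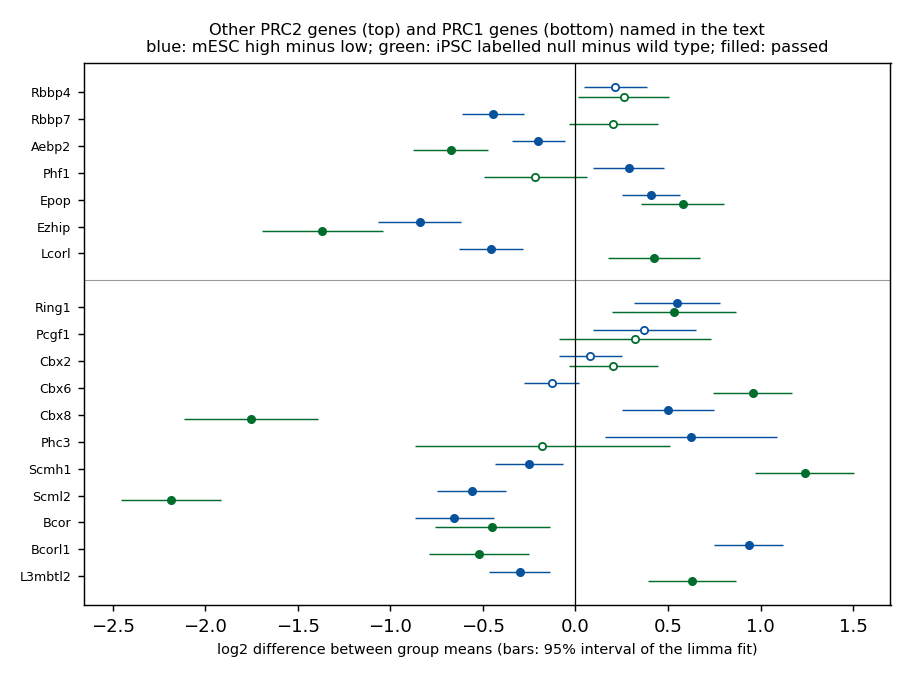
Change of the other PRC2 genes (top) and other PRC1 genes (bottom) that the text names, in mESC (blue, Tbx3-high minus Tbx3-low) and iPSC (green, labelled Tbx3-null minus wild type): the horizontal axis is the log2 difference between group means, bars are 95% intervals of the limma fit and filled points passed the threshold. Scml2 and Cbx8 reach -2.19 and -1.75 in the iPSC, while the mESC values run from -0.84 for Ezhip to 0.94 for Bcorl1.

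Of 9 genes whose products oppose Polycomb repression, 0 rose and 1 fell in Tbx3-high mESC by limma, and 8 did not pass. Over all genes 17.2% were higher and 13.9% lower. The histone H3 lysine 27 demethylase gene Kdm6a fell by 0.21 (adjusted p = 0.0416), a call lost under normexp background and with the series table values. Under the null label Kdm6b, the related demethylase, fell by 0.62 ± 0.12 (SE, adjusted p = 0.00307). Bap1, which removes the ubiquitin mark of PRC1, rose there by 0.50 ± 0.12 (SE, adjusted p = 0.0108), and 7 did not pass. The shares over all genes were 19.4% higher and 15.3% lower. Over all genes the third comparison called 16.3% higher and 12.5% lower. In this list it had 2 positive calls, Bap1 at 0.59 and Asxl2, a partner of Bap1, at 0.48, and 1 negative one, Kdm6b at -0.65. Bap1 lost it under quantile normalization (0.41), and Asxl2 there (0.38) and with the series table values (0.45).

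The last list holds 36 genes known as Polycomb targets in pluripotent cells, and 22 of them were bright enough to be tested in mESC. Of these 7 rose, 4 fell and 11 did not pass in Tbx3-high cells, beside 17.2% higher and 13.9% lower over all genes. Their median change was 0.20, and that of all genes was 0.04. Pax3, one of those that rose, and Tlx1 entered through the Tbx3-high group alone, so these counts are not support for a direction. Gata6, a factor of the primitive endoderm, rose by 1.49 ± 0.13 (SE, adjusted p = 1.50e-05), the neural factor Olig2 by 0.99, the LIM homeobox gene Lhx5 by 0.84 and the ligand gene Wnt6 by 0.70. Hand1, a trophoblast and heart factor, fell by 1.54 ± 0.27 (SE, adjusted p = 0.00173) and Cdkn2a, a cell cycle inhibitor locus that Polycomb silences, by 0.94 ± 0.08 (SE, adjusted p = 1.06e-05). Hoxb13, of the posterior body axis, fell by 0.78 (adjusted p = 0.000960). The remaining 14 genes were not well above background on all arrays of either mESC group and were not tested.

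In the iPSC 29 of the 36 targets were tested. Under the null label 1 was called higher, 10 lower and 18 did not pass, beside 19.4% higher and 15.3% lower over all genes. The median change of the targets was -0.22, and that of all genes was 0.07. Because a target could enter through either group alone, the target counts are not support for a direction. Gata6 fell by 1.90 ± 0.19 (SE, n = 2 per group, adjusted p = 5.55e-05) from levels well above background in both groups, and Wnt6 by 1.56 ± 0.19 (SE, adjusted p = 0.000161). Hoxa11 and Hoxd9, homeobox genes of the body axis and limbs, were not well above background under the null label, so they were at least 2.31-fold and at least 2.17-fold lower there. For Hoxc9 the bound was at least 1.02-fold. All 3 lost their calls under normexp background, and Hoxc9 also under quantile normalization and with the series table values. Pax6, an eye and neural factor, was called higher (adjusted p = 0.000109) with mean levels of -2.28 against -5.75. However, 0 of the 2 wild-type arrays had all its spots well above background. Pax6 thus entered through the null-labelled group alone, so its direction was set by the filter. In the third comparison 31 targets were tested, with 2 positive and 8 negative calls, beside 16.3% and 12.5% over all genes. Among the targets well above background in all 4 groups, Lhx2, a forebrain homeobox gene, was at -1.38 there.

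Some markers of other cell types also differed between these groups, and in the iPSC the fibroblast markers went both ways. Over all genes 17.2% were higher and 13.9% lower in Tbx3-high mESC, and 19.4% were higher and 15.3% lower under the null label. Of 8 primitive endoderm markers, 4 passed in mESC, all higher in Tbx3-high cells, and 4 passed in iPSC, all lower under the null label. In both cell types they were Gata6, Pdgfra, Lama1 and Sox17, of which Gata6 and Sox17 are also in the list of targets. In mESC Pdgfra rose by 1.30, Lama1 by 0.78 and Sox17 by 0.57, and under the null label Lama1 fell by 1.29 and Sox17 by 0.75, while Pdgfra, not well above background there, was at least 2.21-fold lower. Pdgfra entered each comparison through its brighter group alone, so its direction was set by the filter. The other Sox17 probe was at 0.40 in mESC without a call and at -0.73 in iPSC with one. The mean level of the primitive endoderm list was -2.22 to -1.86 on the Tbx3-low, -1.67 to -1.21 on the Tbx3-high, -2.91 to -2.90 on the wild-type and -3.76 to -3.70 on the null-labelled arrays. Of 10 fibroblast markers, 6 were tested in mESC and 4 of these were higher in Tbx3-high cells, Pdgfrb by 1.83, Col1a1 by 1.54, Fn1 by 0.86 and Vim by 0.27. In iPSC 9 were tested, and Pdgfrb fell by 2.22, Col1a1 fell by 2.32 and Fn1 fell by 0.51 under the null label, where Vim rose by 0.37. Lum was at least 1.51-fold higher there, but it entered through the null-labelled group alone, so its direction was set by the filter. The mean level of the fibroblast list was -2.37 to -2.23 on the Tbx3-low, -1.88 to -1.59 on the Tbx3-high, -2.10 on both null-labelled and -1.99 to -1.76 on the wild-type arrays, and the fibroblast gene Postn was not well above background on any array. The part of these cell types in the Polycomb results was not tested, and in bulk RNA fewer cells of a type and less RNA per cell cannot be told apart.

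For each Polycomb gene the 2 other genes with the most alike pattern were taken by Pearson's r over the 12 arrays, after the mean of each cell type was subtracted, among 17884 genes. Phf19 was closest to Cnn1 (r = 0.991) and Dusp9 (r = 0.990). Ezh1 was closest to Wbp2 (r = 0.984) and Trim13 (r = 0.982), and Suz12 to Otud4 (r = 0.980) and Map7d2 (r = 0.975). Rnf2 was closest to Fgfr4 (r = 0.976) and Rad21 (r = 0.974), and Kdm2b to Erbb2 (r = 0.968) and Pccb (r = 0.966). For Cbx7 probe 1 these were Sox11 and Cracdl, for Jarid2 Ddx19b and Slc19a2, for Mtf2 Ccar2 and Nup155, and for Eed Degs1 and Eif3e, with r from 0.929 to 0.951. Ezh2 had the lowest values, with Prr15 (r = 0.882) and Hadh (r = 0.870). The arrays share groups, slides and scaling, and the highest of so many values are high in part by selection, so these r are a description.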

How the data were processed

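Per the file headers, each spot's intensity is a processed signal of Agilent Feature Extraction 10.7.3.1, with background subtracted and no scaling among arrays, and probe positions are on mm9. Per the labels' protocols, RNeasy kits gave the RNA and the Agilent Low Input kit the Cy3 label. The deposited series table holds log2 values; their scaling and background treatment are not given in the sources used. Its columns had correlations with log2 of the processed signal of 0.958 to 0.972, with medians of 6.61 (mESC) and 6.58 to 6.59 (iPSC), and it served as an alternative only.

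Levels were log2(processed signal) relative to that array's 75th percentile over its spots other than controls. Outlier spots were set to missing and spots of a probe averaged. All 12 arrays entered 1 fit of 4 group means by limma 3.58.1 under R 4.3.3 (8 residual degrees of freedom) after a check on simulated data. A probe entered a comparison when well above background on all arrays of at least 1 group compared. Folds given as at least a value are bounds for groups not well above background, taken against each array's lowest signal well above background. The mESC change of Pdgfra and the iPSC levels of Pax6 are plain values and not bounds. Signals were read with Python 3.11.15 and pandas 2.3.3.

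Names came from a RefSeq gene table: accessions named 27650 probes, symbols 3406 and synonyms 307, while 1774 carry the file's own name and 22544 have none. All members, every probe, were named in the text. Of each other list, up to 6 genes per comparison with the widest change among those past the threshold were named, and Pcgf1, Cbx2, Cbx8 and Wnt6 in mESC, Pou5f1, Sox2, Nanog and Postn were named beside them after their values were seen. Some genes that this rule would name are counted in their lists but not reported here. The members and lists were chosen with earlier results of these data known, and the E2F site was added after the values were seen.

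Same-numbered mESC arrays deviated together (r = 0.154, 0.244, 0.166 and 0.119 over 30661 probes), but some others of the same slide row did so more (Tbx3-low 1 with Tbx3-high 2 at 0.338, 4 with 3 at 0.216). Numbers 1 and 2 lie in slide row 1, 3 and 4 in row 2. With 2 iPSC arrays per group the deviations mirror each other. Both same-numbered iPSC pairs therefore share 1 value of r, 0.0031, which is not repeated evidence on pairing. The replicate number as a block was therefore an alternative.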

Additional observations from a re-analysis of the deposited data

Results flagged for a closer look

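The level of Mtf2 probe 2 on Tbx3-low replicate 2, -1.964, lay apart from the other 3 arrays of its group, of which the nearest was at -1.83; the gap was 0.861 of the group's range, above Dixon's 95% critical value for 4 samples. Of 34 groups of 4 arrays examined this way it was the only one, and chance gives about 1 in 20.

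The mESC effect (high minus low) differed from the iPSC effect (wild type minus null) in the interaction term of the limma fit for 7 probes of 5 genes. Positive differences were those of Cbx7 probe 1 (0.932435), Kdm2b probe 2 (0.705699), Mtf2 probe 2 (0.619206), Ezh1 probe 2 (0.567352) and the brightest Kdm2b probe (0.565926). Negative ones were those of Cbx7 probe 2 (-1.07126) and Suz12 (-0.403548). Both Kdm2b probes differed the same way, and both Cbx7 probes opposite ways.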

How the results depend on the processing

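Of 1155 values recomputed under alternatives, 1023 kept their direction and their side of the threshold (counts within 1.5 times), 77 lost and 8 gained a call, 25 counts moved further and 22 changed sign. The cause of these shifts was not tested. Signal was well above background for all members. With the same arrays the mESC SE was 0.07 for Suz12 and 0.20 for the dim Ezh1 probe 4. What limits the precision was not tested. Probes past the threshold numbered 4714 and 4430 in mESC with slide row 1 or 2 alone (2 and 3 of the 10 genes, 1 and 1 for the interaction). With 1 probe per gene they numbered 5202 in mESC, 6498 in iPSC and 5566 for the interaction, and 6798 in iPSC with the mean of a gene's probes. In iPSC 2 of the 10 genes passed without the dim filter and 1 with only the groups compared, and for the interaction 1 without the dim filter and 1 with the replicate block. The replicate block changed no other count or call beyond Ezh1 probe 4 in iPSC and the interactions of Suz12 and Cbx7. Without 1 iPSC array, 6872 to 8298 probes and 1 to 3 of the 10 genes passed in iPSC, and without 1 of the 12 arrays 0 to 2 genes passed for the interaction.

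Values that changed sign had no call in the main setting, except the interaction of Cbx7 (-0.0694 with the mean of its probes). In mESC they were Ezh2 in row 2 alone (0.0174), and Jarid2 in row 2 alone (0.0835), with array weights (0.0330) and without 1 array (-0.0508 to 0.0696). In iPSC quantile normalization turned Eed (-0.0465), Mtf2 (-0.000208) and Kdm2b (-0.197), normexp background Kdm2b (-0.0428), and the series table Eed (-0.123) and Kdm2b (-0.231). Leaving out 1 iPSC array gave Ezh1 probe 3 -0.0116 to 0.225, Suz12 -0.140 to 0.0239, Kdm2b -0.0518 to 0.0845 and its probe 3 -0.0880 to 0.148. The interaction of Ezh1 was -0.0371 under quantile normalization and -0.107 with the series table, and that of Rnf2 -0.263 to 0.0617 without 1 array.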
